A study of Mus musculus with 10 samples.

Results

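The WNT genes of the pregnant mouse uterus were examined as 43 genes by role. They comprised 12 WNT ligands, 11 Frizzled and Lrp receptors, 9 secreted antagonists, 6 genes of the R-spondin axis, and 5 effectors and targets. The genes were chosen by name from the pathway, with earlier results of these data known. Their identifiers were matched to symbols in a GRCm38 annotation. All 43 were found among the 45706 genes of the count table, and all 43 were among the 25146 genes tested.

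WNT proteins are secreted lipid-modified ligands that bind Frizzled receptors on neighboring cells. With Lrp5 or Lrp6 as co-receptor they stabilize beta-catenin, which enters the nucleus and activates target genes with TCF/LEF factors, and other WNT proteins act on cell polarity without beta-catenin. R-spondins bind Lgr receptors and prevent the ligases Znrf3 and Rnf43 from removing Frizzled receptors, whereas Sfrp, Dkk and Wif1 proteins block ligands or co-receptors outside the cell. In the uterus WNT signaling takes part in gland formation, embryo implantation and decidualization.

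The comparison set 5 control uteri (*Arid1a f/f*) against 5 uteri of genotype *Ltf iCre/+ Arid1a f/f*, here called mutant, at gestation day (GD) 3.5, when the uterus prepares for implantation. All were adult females mated with wildtype males, and their mixed background drew on the 129 substrains 129S1/SvImJ, 129P2/OlaHsd and 129S6/SvEvTac as well as on C57BL/6. Both genotypes carried *Arid1a*, which encodes a chromatin remodeling subunit, as floxed alleles. The *Ltf iCre* allele expresses Cre from the lactoferrin locus, which is active in the endometrial epithelium of adult females, and controls lacked this allele. According to the paper, expression of this Cre has also been reported in myeloid immune cells, among them neutrophils. RNA came from a part of each uterus with all its layers, so each value mixes epithelium, stroma, muscle, vessels and immune cells, and fewer cells of a type cannot be told apart from less RNA per cell.

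Libraries held between 59296537 and 72702411 counts. Levels are given as CPM, which are read counts scaled to the library size, and fold changes as log2 differences ± standard error from the edgeR quasi-likelihood test with adjustment over all tested genes. *Arid1a* itself stood at 192 to 251 CPM in controls and 165 to 208 CPM in mutant uteri (adjusted p = 0.201), measured over all cells of the tissue and not in the epithelium alone. *Ltf*, which carries the Cre insertion, was higher in all 5 mutant uteri (adjusted p = 0.00920), with 2831 CPM in replicate 5 against at most 11.7 CPM in controls. Epithelial markers summed to 719 to 946 CPM in controls and 1044 to 2106 CPM in mutant uteri, with 5 of 8 called higher. Endothelial markers summed to 723 to 990 CPM and 362 to 494 CPM, with 5 of 6 called lower. Neutrophil markers summed to at most 22.7 CPM in 9 uteri and to 807 CPM in mutant replicate 5. That uterus also had the highest *Ltf*, and the part of neutrophils in its *Ltf* value was not tested.

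Of the 43 WNT genes, 10 passed the adjusted p threshold of 0.05, or 23.3%, beside 9.70% of all genes tested. The 6 that rose in mutant uteri were the ligands *Wnt4*, *Wnt7a* and *Wnt7b*, the receptor *Fzd10*, the antagonist *Wif1* and the R-spondin receptor *Lgr5* (14.0% of the WNT genes, beside 5.19% of all genes). The 4 that fell were the receptor *Fzd4*, the antagonist *Sfrp4*, and *Rspo3* and *Lgr4* of the R-spondin axis (9.30%, beside 4.51% of all genes). For 9 of the 43 genes, or 20.9%, the values of the genotypes did not overlap, beside 10.7% of all genes. Because the list was drawn up with earlier results of these data known, these shares are descriptive and do not test for an excess. The median log2 fold change of the 43 genes was -0.04, beside 0.03 over all genes, with 20 genes above zero and 23 below. The changes thus ran in both directions within every role except the ligands, in which 3 rose, and the effectors and targets, in which no gene passed.

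**Figure D1:**
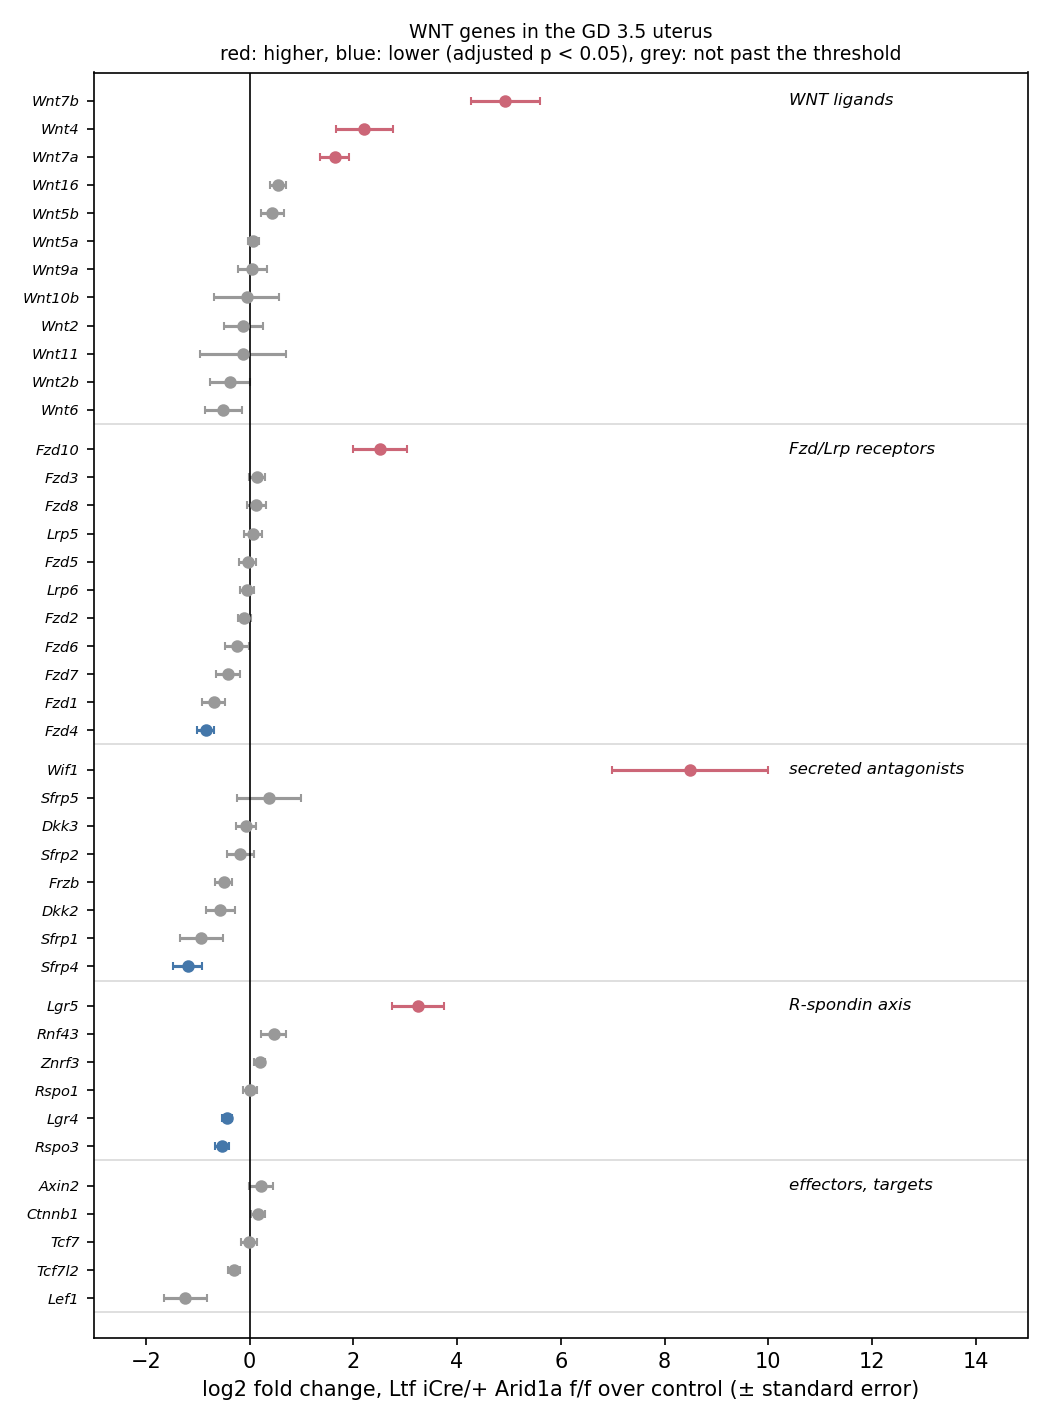
Log2 fold change of each WNT gene in mutant over control uteri (horizontal axis; points, edgeR estimates; bars, ± standard error), grouped by role, without *Dkk1*, which had at most 2 counts per library. Red points (6 genes, *Wif1* at 8.49 the farthest right) passed the threshold as higher and blue points (4 genes, *Sfrp4* at -1.19 the farthest left of them) as lower; *Lef1* at -1.24 is grey.

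*Wnt7b*, a ligand of epithelia that signals through beta-catenin, showed the largest rise among the ligands. In the 5 control uteri it stood at 0.545, 0.418, 0.783, 1.21 and 0.675 CPM, and in the 5 mutant uteri at 44.9, 6.22, 6.74, 12.1 and 40.9 CPM. Every mutant uterus was above every control, the lowest by 5.15-fold, while replicates 1 and 5 of the mutant group were far above the other 3. The log2 fold change was 4.93 ± 0.66 (adjusted p = 0.00185), and it was 3.52 (adjusted p = 0.000238) with those 2 uteri left out. The gene lies at chr15:85535437-85582473 (GRCm38, minus strand), and 6.61% of its exon length overlaps the antisense gene *AU022754*, whose reads could not be separated because the strand setting of the counting was not given in the sources used here.

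*Wnt7a* is made by the uterine luminal epithelium and is needed for gland formation and for the patterning of the female tract. Controls had 14.6, 10.2, 8.01, 10.7 and 11.5 CPM, and mutant uteri had 38.7, 27.7, 23.9, 21.4 and 60.2 CPM. The groups did not overlap, and the lowest mutant value was 1.47-fold above the highest control. Mean levels were 11.0 ± 2.38 CPM and 34.4 ± 15.9 CPM (SD, n = 5 each), and the log2 fold change of 1.64 ± 0.28 (adjusted p = 0.00554) passed in each of 10 fits that left out 1 uterus. It was 1.14 without replicates 1 and 5 of the mutant group. The gene lies at chr6:91363981-91411363 on the minus strand.

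*Wnt4*, which acts in female tract development and in decidualization of the stroma, was measured at 9.29, 5.32, 8.29, 6.06 and 4.21 CPM in controls. The mutant uteri had 29.7, 16.5, 9.30, 13.6 and 84.6 CPM. The groups touched without overlapping, since the lowest mutant uterus and the highest control were level, and replicate 5 stood far above all others. The log2 fold change was 2.21 ± 0.55 (adjusted p = 0.0288), and it was 1.38 without mutant replicate 5 (adjusted p = 0.0255) and 0.99 without mutant replicates 1 and 5 (adjusted p = 0.0405). The call was lost when control replicate 2, 3, 4 or 5 was left out (adjusted p = 0.0775, 0.0625, 0.0681 and 0.0695). *Wnt4* lies at chr4:137277489-137299726 on the plus strand.

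The other 9 ligands did not pass the threshold, with log2 fold changes from -0.51 (*Wnt6*) to 0.55 (*Wnt16*). *Wnt16* was nearest to it, with 14.2 to 20.9 CPM in controls and 19.1 to 31.5 CPM in mutant uteri (adjusted p = 0.0532), and 4 of 5 mutant uteri were above every control. DESeq2 called it (adjusted p = 0.0159). *Wnt5a*, a stromal ligand that mostly acts without beta-catenin and guides crypt and gland formation, had 331, 259, 273, 293 and 292 CPM in controls and 270, 365, 281, 265 and 334 CPM in mutant uteri. The groups overlapped, with a log2 difference of 0.07 ± 0.11 and a 95% interval from -0.18 to 0.31.

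*Wnt11*, a ligand that chiefly acts on cell polarity and movement, split the mutant group. Controls had 22.9, 21.5, 13.6, 20.1 and 19.7 CPM. The mutant uteri had 0.941, 33.9, 29.4, 24.7 and 0.622 CPM. Thus replicates 2, 3 and 4 were above every control while replicates 1 and 5 were near zero, and the highest of the group was 54.5-fold above the lowest. The log2 difference between the genotypes was -0.13 ± 0.83 (adjusted p = 0.948). With replicates 1 and 5 of the mutant group left out it was 0.59 (adjusted p = 0.0453), with the reversed sign. The summed gland markers were also lowest in these 2 uteri, at 7.71 and 19.3 CPM. Their sum was 30.9 to 51.7 CPM in the other mutant uteri and 73.3 to 121 CPM in controls. *Cxcl15*, *Spink1*, *Wfdc3* and *Ttr* each had this order. *Foxa2* did not, at 4.48 and 5.15 CPM beside 4.55, 5.87 and 8.58 CPM in the other mutant uteri. *Prss28* and *Prss29* were near zero in all mutant uteri. The part of the gland markers in the *Wnt11* values was not tested.

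Levels of different ligands were compared as CPM per kilobase of exon, a scale on which genes of unequal length can be set side by side. *Wnt5a* was the highest ligand in every uterus. It held 56.6 to 60.0% of the summed ligand level in controls and 38.2 to 53.6% in mutant uteri, and these ranges did not overlap. The summed ligand level itself was 58.6 to 73.9 CPM per kilobase in controls and 70.7 to 112 in mutant uteri. *Wnt7a* held 4.28 to 6.21% in controls and 9.52 to 17.0% in mutant uteri. *Wnt7b* held 0.146 to 0.396% and 1.46 to 11.8%, and *Wnt4* held 1.60 to 3.35% and 3.00 to 18.0%. After *Wnt5a*, control means were 4.90 ± 1.23 for *Wnt9a*, 4.72 ± 0.862 for *Wnt11*, 4.02 ± 0.688 for *Wnt16*, 3.47 ± 0.749 for *Wnt7a* and 3.25 ± 0.413 for *Wnt5b* CPM per kilobase (SD, n = 5), and these neighbors in the order differed by less than their spread. In mutant uteri the second place went to *Wnt7a*, at 10.8 ± 5.01 CPM per kilobase, within the spread of *Wnt4* at 7.33 ± 7.41. *Wnt10b* was the lowest ligand in both genotypes, with 49 counts over all controls and 44 over all mutant uteri.

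**Figure D2:**
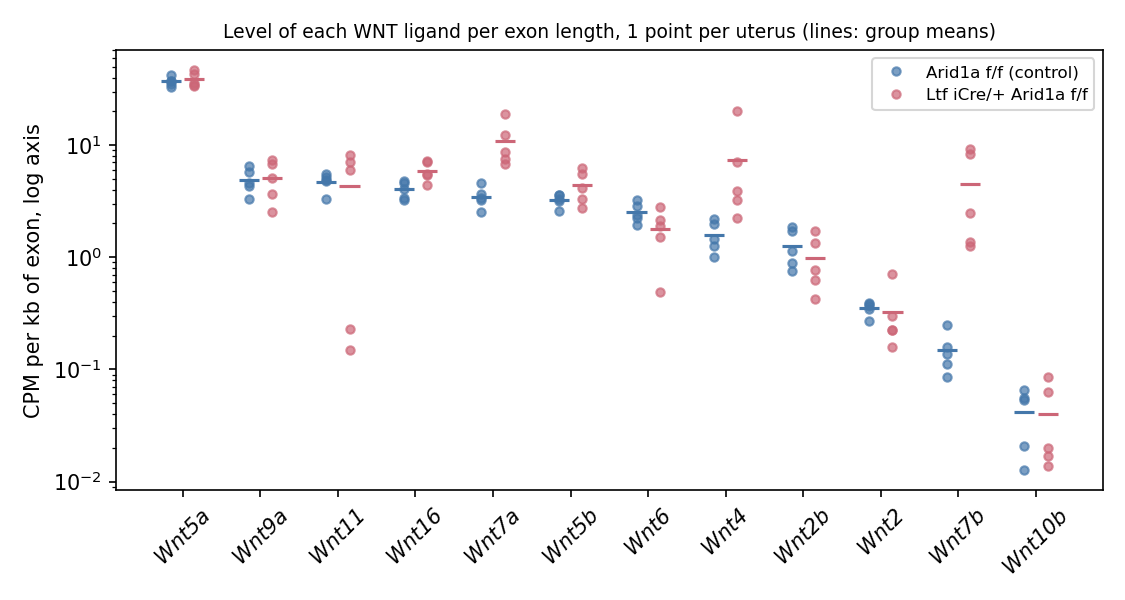
Level of each WNT ligand in CPM per kilobase of exon (vertical log axis; 1 point per uterus, 5 per genotype; short lines, group means), ordered by the control mean. *Wnt5a* lies highest in both genotypes (control mean 37.0), the mutant points of *Wnt7a* and *Wnt7b* lie above all their controls, and 2 mutant points of *Wnt11* lie far below the others.

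Promoter sequence of the ligand *Wnt7a* and the antagonist *Wif1* is shown because both genes rose in all 5 mutant uteri and began from unlike control levels (11.0 and 0.0254 CPM). The 250 bases before each RefSeq start site (GRCm38.p6) are written 5′ to 3′ on the gene's strand, with each CG pair in capitals. For *Wnt7a* the stretch is chr6:91411354-91411603 (minus strand, 34 CG pairs), and for *Wif1* it is chr10:121033754-121034003 (plus strand, 21 CG pairs).
Wnt7a: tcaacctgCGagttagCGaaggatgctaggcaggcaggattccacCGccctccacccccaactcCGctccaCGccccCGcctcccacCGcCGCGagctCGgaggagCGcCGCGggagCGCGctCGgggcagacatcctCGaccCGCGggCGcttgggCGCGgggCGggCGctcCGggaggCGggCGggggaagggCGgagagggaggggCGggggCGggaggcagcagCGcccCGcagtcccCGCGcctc
Wif1: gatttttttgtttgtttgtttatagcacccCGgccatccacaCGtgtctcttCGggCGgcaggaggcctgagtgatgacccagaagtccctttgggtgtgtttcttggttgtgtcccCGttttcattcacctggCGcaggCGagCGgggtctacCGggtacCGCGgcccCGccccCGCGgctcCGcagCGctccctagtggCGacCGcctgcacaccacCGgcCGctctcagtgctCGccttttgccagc
Both hold more CG pairs than the median of 6 over the same stretch of all promoter windows. The median was 16 over the 39 windows of the 29 WNT genes that had one.

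The *Wnt11* promoter is shown because it was one of only 2 WNT genes with the core letters read by TCF/LEF factors. The letters searched were CTTTGAT and, for the other strand, ATCAAAG, over the 300 bases from 250 before to 50 after each start site. They stood in 2 of the 29 WNT genes with a RefSeq window (6.90%; *Wnt11* and *Wnt5b*), beside 4.29% of all genes with a window, and in 0 of the 6 called WNT genes with one. The 14 without a window included *Wnt7b*, *Lgr5*, *Sfrp4* and *Rspo3*. In *Wnt11* the match began 51 bases before the start site, within chr7:98834862-98835111 (plus strand), and is in capitals. A later *Wnt11* start site had no match.
Wnt11: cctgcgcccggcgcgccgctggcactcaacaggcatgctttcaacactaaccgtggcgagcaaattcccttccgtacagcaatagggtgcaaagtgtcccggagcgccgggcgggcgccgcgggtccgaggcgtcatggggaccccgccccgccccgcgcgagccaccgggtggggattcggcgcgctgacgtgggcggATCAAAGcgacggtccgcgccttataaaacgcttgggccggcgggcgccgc
A match to these letters is a description of the sequence, and no binding was measured.

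Among the receptors, *Fzd10* rose and *Fzd4* fell, and the other 9 receptors did not pass the threshold. *Fzd10*, a receptor for WNT ligands that signal through beta-catenin, had 5.08, 4.78, 3.67, 5.14 and 4.59 CPM in controls and 32.8, 11.3, 9.84, 10.7 and 67.5 CPM in mutant uteri. The groups did not overlap, the controls were tightly grouped, and mutant replicates 1 and 5 were the highest. The log2 fold change was 2.51 ± 0.52 (adjusted p = 0.0138), and it was 1.80 without mutant replicate 5 and 1.19 without mutant replicates 1 and 5 (adjusted p = 0.00950 and 0.00111). The gene lies at chr5:128600844-128604093 on the plus strand.

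*Fzd4* encodes a receptor of vascular endothelium, where it also binds Norrin. It had 24.4, 18.3, 26.9, 20.6 and 20.4 CPM in controls and 11.2, 16.0, 13.1, 9.21 and 11.7 CPM in mutant uteri. No mutant uterus reached the lowest control, and *Fzd4* fell by 0.85 on the log2 scale (± 0.16, adjusted p = 0.00858), passing in each of 10 fits with 1 uterus left out. Markers of endothelium, among them *Tek* (log2 fold change -1.21) and *Cdh5* (-1.26), fell in the same uteri, and their part in the *Fzd4* difference was not tested. *Fzd4* lies at chr7:89404355-89413134 on the plus strand.

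*Fzd1* had 85.8 to 194 CPM in controls and 73.2 to 135 CPM in mutant uteri, and did not pass (log2 fold change -0.69 ± 0.22, adjusted p = 0.0722), although it did without mutant replicate 5 (adjusted p = 0.0199) or control replicate 1 (adjusted p = 0.0243) and with DESeq2 (adjusted p = 0.0272). *Fzd6*, which acts in planar cell polarity, was the highest receptor of controls per kilobase (35.4 ± 4.73 CPM per kilobase, SD, n = 5), level with *Fzd1* (35.0 ± 9.60) and *Fzd2* (32.6 ± 4.23). Its CPM was 199, 145, 155, 190 and 164 in controls and 91.7, 205, 160, 183 and 85.1 in mutant uteri. Only mutant replicates 1 and 5 were below the controls, as for *Wnt11*, and the log2 difference of -0.24 ± 0.23 did not pass (adjusted p = 0.579). The co-receptors *Lrp5* and *Lrp6* had log2 differences of 0.07 ± 0.17 and -0.05 ± 0.13, with 95% intervals from -0.30 to 0.45 and from -0.35 to 0.24. The remaining *Fzd2*, *Fzd3*, *Fzd5*, *Fzd7* and *Fzd8* lay between -0.41 and 0.14.

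**Figure D3:**
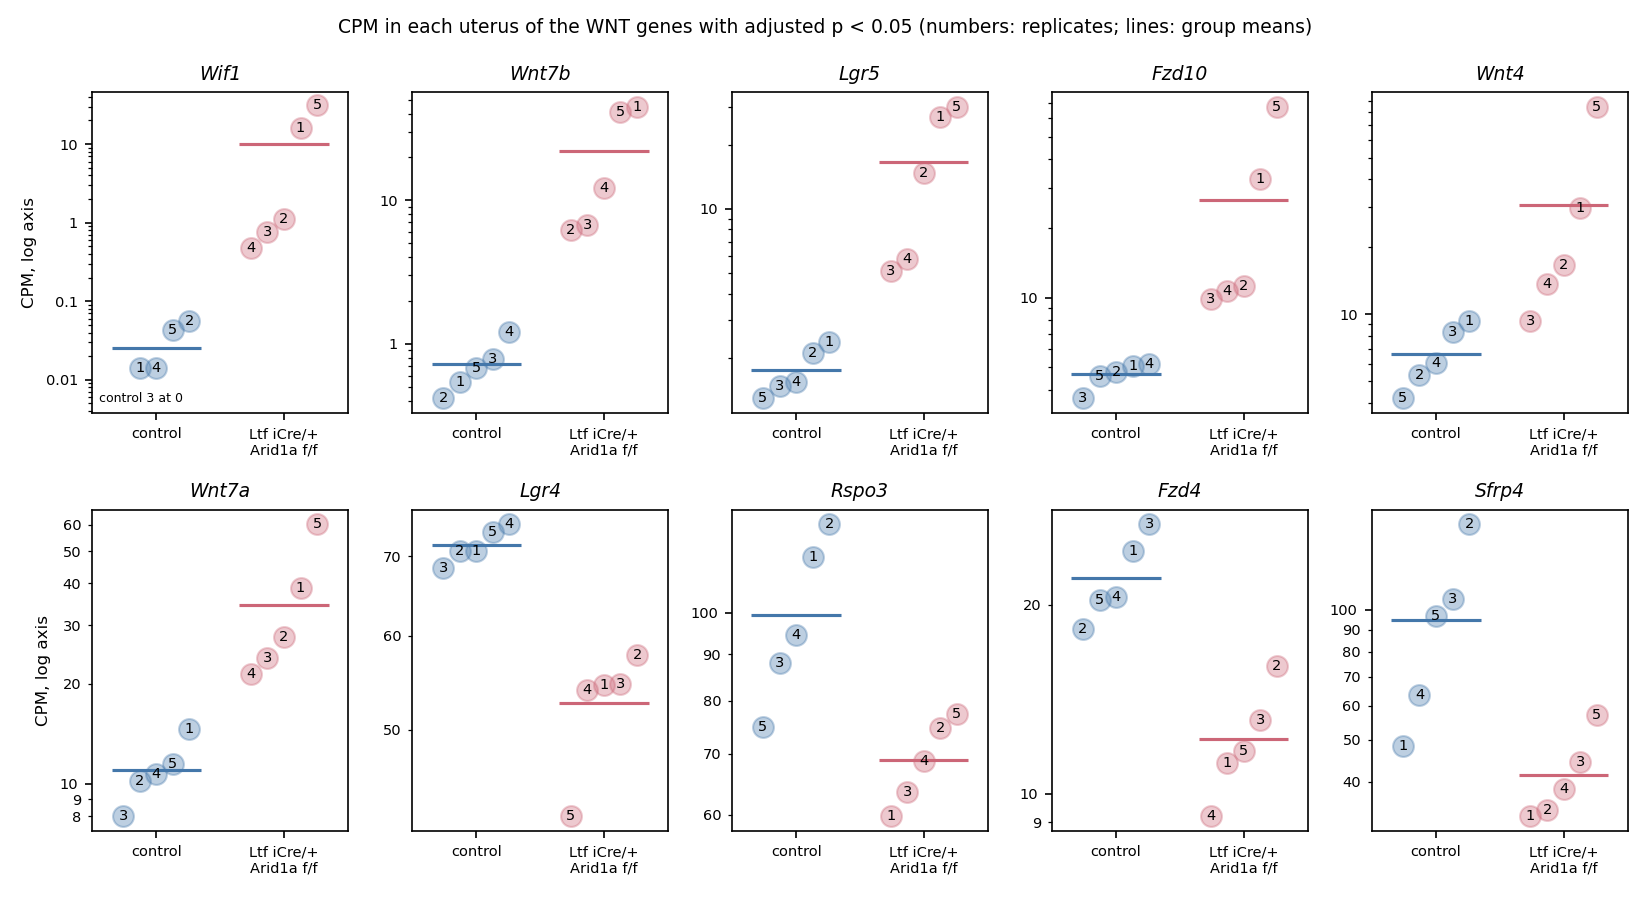
CPM in each uterus (vertical log axes, each panel with its own range; numbers, replicates, set left to right by value; horizontal lines, group means) of the 10 WNT genes past the threshold. In the panels of the 6 genes that rose, mutant replicates 1 and 5 are the highest; in those of *Lgr4* and *Fzd4* all mutant points lie below all controls, and in those of *Rspo3* and *Sfrp4* one control lies within the range of the other group.

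Of the 9 secreted antagonists, *Wif1* rose, *Sfrp4* fell, and 7 did not pass the threshold. *Wif1*, which binds WNT ligands directly, was barely detected in controls, at 0.0140, 0.0558, 0, 0.0142 and 0.0431 CPM, or 9 counts over all 5 libraries. mutant uteri had 16.0, 1.12, 0.752, 0.479 and 31.3 CPM, or 1023, 66, 46, 33 and 2166 counts. All 5 were above every control, the lowest by 8.60-fold, and the values within the group ranged over 65.4-fold with replicates 1 and 5 highest. The fitted log2 fold change was 8.49 ± 1.51 (adjusted p = 0.00680) and rests on very few control counts. It was 7.38 without mutant replicate 5 and 4.82 without mutant replicates 1 and 5 (adjusted p = 0.00690 and 0.000772). The gene lies at chr10:121033960-121100650 on the plus strand.

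*Sfrp4*, a secreted Frizzled-related protein expressed in uterine stroma, had 48.5, 158, 106, 63.5 and 97.0 CPM in controls and 33.3, 34.3, 44.3, 38.4 and 57.2 CPM in mutant uteri. The groups overlapped, with control replicate 1 below mutant replicate 5, and the controls spread widely. It fell by 1.19 on the log2 scale (± 0.28, adjusted p = 0.0244). The call was lost without control replicate 2 or 3 or mutant replicate 1 or 4 (adjusted p = 0.0537, 0.0599, 0.0509 and 0.0523). The stromal markers *Vim* (log2 fold change -0.94) and *Dcn* (-0.65) fell as well, and 7 of the 8 stromal markers had log2 differences below zero. The 8 markers summed to 7379 to 9470 CPM in controls and 6249 to 10160 CPM in mutant uteri. Much of that sum was *Col1a1*, the only one above zero, with 2772 to 4786 CPM in controls and 2963 to 7358 CPM in mutant uteri. The part of stromal cells in the *Sfrp4* difference was not tested. *Sfrp4* lies at chr13:19623104-19632994 on the plus strand.

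*Sfrp2* was the highest antagonist of controls per kilobase, at 51.9 ± 8.37 CPM per kilobase (SD, n = 5), and *Dkk3* followed at 23.5 ± 4.38, within the spread of *Sfrp4* at 22.6 ± 10.2. In CPM, *Sfrp2* stood at 131, 132, 103, 94.5 and 98.5 in controls and 38.5, 107, 112, 133 and 103 in mutant uteri. Mutant replicate 1 alone was far below the rest, and the log2 difference was -0.18 ± 0.26 (adjusted p = 0.725). *Sfrp1*, *Dkk2* and *Frzb* had log2 differences of -0.93 ± 0.41, -0.57 ± 0.28 and -0.50 ± 0.16, which did not pass (adjusted p = 0.176, 0.219 and 0.0780). All 3 passed with mutant replicates 1 and 5 left out (adjusted p = 0.0310, 0.0371 and 0.0483). *Dkk1*, a blocker of the Lrp co-receptors, had at most 2 counts in any library, so that no difference was detectable at this depth. *Sfrp5* was low, at no more than 0.420 CPM in any uterus.

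In the R-spondin axis, *Lgr5* rose while *Lgr4* and *Rspo3* fell. *Lgr5* is both an R-spondin receptor and a WNT target, known as a stem cell marker in other epithelia. It had 2.38, 2.10, 1.47, 1.53 and 1.29 CPM in controls and 27.0, 14.7, 5.12, 5.81 and 30.2 CPM in mutant uteri. The groups did not overlap, with the lowest mutant uterus 2.15-fold above the highest control. The log2 fold change was 3.24 ± 0.50 (adjusted p = 0.00374), and it was 2.28 without mutant replicates 1 and 5 (adjusted p = 0.00271). *Lgr5* lies at chr10:115450311-115587780 on the minus strand.

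*Lgr4*, a related R-spondin receptor of many tissues, was steady within controls at 70.8, 70.7, 68.4, 74.5 and 73.4 CPM. In mutant uteri it had 54.5, 57.8, 54.6, 54.0 and 42.3 CPM, below every control. *Lgr4* fell by 0.44 on the log2 scale (± 0.09, adjusted p = 0.0106) and passed in each of 10 fits with 1 uterus left out. Per kilobase, *Lgr4* stood at 12.2 ± 0.415 CPM in controls and 8.95 ± 1.01 in mutant uteri, and *Lgr5* at 0.171 ± 0.0450 and 1.61 ± 1.14 (SD, n = 5 each). *Lgr4* thus remained the more abundant of these receptors in both genotypes. It lies at chr2:109917647-110014257 on the plus strand.

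*Rspo3*, a secreted amplifier of WNT signaling, had 115, 125, 88.1, 94.5 and 74.8 CPM in controls and 59.8, 74.7, 63.5, 68.7 and 77.3 CPM in mutant uteri. Only mutant replicate 5 was above the lowest control. *Rspo3* fell by 0.53 on the log2 scale (± 0.14, adjusted p = 0.0327), and the call was lost without control replicate 1, 2 or 4 or mutant replicate 1, 3 or 4 (adjusted p = 0.0602 to 0.0768). Of its exon length at chr10:29452416-29535867 (minus strand), 13.1% overlaps the antisense gene *Gm48159*. *Rspo1* had a log2 difference of 0.01 ± 0.14, with a 95% interval from -0.29 to 0.30. The ligases *Znrf3* and *Rnf43*, themselves WNT targets, had log2 differences of 0.19 ± 0.10 and 0.46 ± 0.25 (adjusted p = 0.266 and 0.278).

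None of the 5 effectors and targets passed in edgeR, although 2 had an unadjusted p under 0.05 and DESeq2 called 1, *Lef1* (adjusted p = 0.0170). *Lef1*, a transcription factor that partners beta-catenin and is also a WNT target, had 70.0, 51.2, 62.4, 54.9 and 51.8 CPM in controls. The mutant uteri had 5.97, 33.8, 34.0, 37.9 and 11.5 CPM. The groups did not overlap, and replicates 1 and 5 were again the lowest. The log2 difference of -1.24 ± 0.41 missed the threshold (adjusted p = 0.0833), and with these 2 uteri left out it was -0.72 and passed (adjusted p = 0.00355). Of its exon length 13.7% overlaps the antisense gene *Gm43352*.

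*Axin2*, a feedback inhibitor widely read as a target of beta-catenin, had 70.9, 50.0, 51.3, 50.6 and 45.3 CPM in controls and 51.6, 53.3, 44.7, 53.9 and 108 CPM in mutant uteri. Apart from mutant replicate 5 the values of the genotypes lay in the same range, and the log2 difference was 0.22 ± 0.23 (95% interval -0.28 to 0.71, adjusted p = 0.604). Without replicate 5 it was -0.08. *Ctnnb1*, which encodes beta-catenin, was the highest of this role, at 770 ± 62.8 CPM in controls and 861 ± 166 CPM in mutant uteri (SD, n = 5 each; log2 difference 0.16 ± 0.13). *Tcf7* and *Tcf7l2*, the other TCF/LEF factors of the set, had log2 differences of -0.01 ± 0.15 and -0.30 ± 0.12 (adjusted p = 0.979 and 0.148). *Tcf7l2* passed without mutant replicate 1, the only mutant uterus in the control range or above it (adjusted p = 0.0125).

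**Figure D4:**
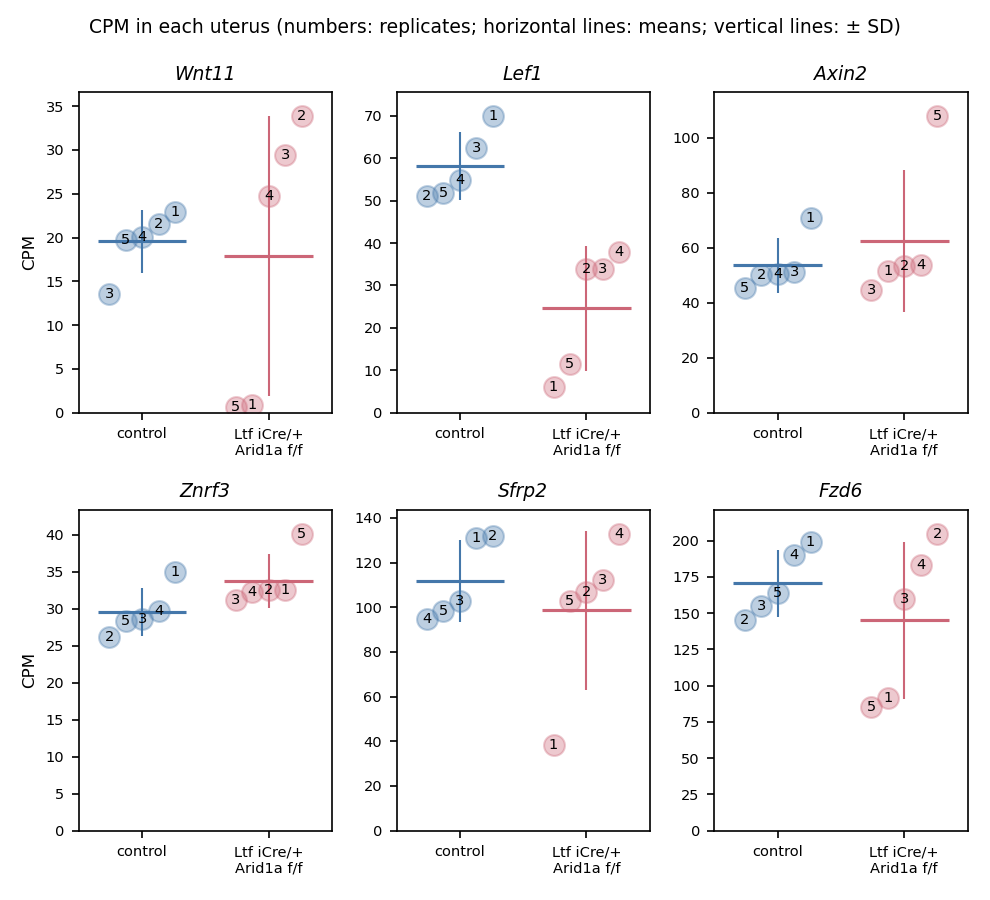
CPM in each uterus (vertical axes from 0; numbers, replicates, set left to right by value; horizontal lines, group means; vertical lines, ± SD, n = 5) of 6 WNT genes that did not pass the threshold. Mutant replicates 1 and 5 are far below the other mutant uteri for *Wnt11*, *Lef1* and *Fzd6*, replicate 5 alone is high for *Axin2* (108 CPM) and *Znrf3* (40.2 CPM), and replicate 1 alone is low for *Sfrp2* (38.5 CPM).

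The mutant uteri were not alike in their WNT genes. Replicate 5 held the highest or lowest value of its group for 28 of the 43 genes (65.1%, beside 46.4% of all genes). It was the highest for 21 of the 43, beside 5737 of all 25146 genes. Replicate 1 held the highest or lowest value for 19 genes (44.2%, beside 52.1% of all genes). Among controls, replicates 1 and 2 exceeded their share of all genes, as mutant replicate 5 did, with 58.1% beside 48.0% and 55.8% beside 40.7%. Control replicate 1 was the highest of its group for 18 of the 43, beside 5345 of all 25146 genes. For all 6 genes that rose, mutant replicates 1 and 5 held the highest pair of values in the mutant group, and for *Lef1* and *Wnt11* the lowest pair. *Ltf* itself was also highest in these 2 mutant uteri, at 383 and 2831 CPM beside 23.6 to 290 CPM in the other 3. The summed epithelial markers were highest in these uteri too, at 2106 and 1545 CPM beside 1044 to 1286 CPM in the other 3. *Epcam* (330 and 322 CPM beside 104 to 137 CPM), *Krt19*, *Cldn7* and *Esrp1* each had this order. The other listed epithelial markers did not. *Cldn4* was lowest in these uteri, at 22.0 and 35.8 CPM beside 46.6 to 57.1 CPM. In replicate 5 *Krt18* was lowest (127 CPM), and *Cdh1* (387 CPM) and *Krt8* (177 CPM) were below replicate 4 (405 and 178 CPM). The part of the epithelial markers in the values of the 6 genes that rose was not tested.

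With both left out, a choice made after seeing the values, all 6 genes that rose passed again. *Wnt11* and *Wnt16* were added to them, giving 8 that rose (5.00% of all genes did in that comparison). The lower genes numbered 10 (4.41% of all genes), namely *Fzd1*, *Fzd4*, *Fzd7*, *Sfrp1*, *Sfrp4*, *Dkk2*, *Frzb*, *Lgr4*, *Lef1* and *Tcf7l2*, while *Rspo3* no longer passed (adjusted p = 0.0550). Replicates 2, 3 and 4 thus shared higher *Wnt7a*, *Wnt7b*, *Fzd10*, *Lgr5* and *Wif1*, at folds below those of the whole group. For *Wnt4* the fold was also smaller, and replicate 3 (9.30 CPM) was level with the highest control (9.29 CPM).

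**Figure D5:**
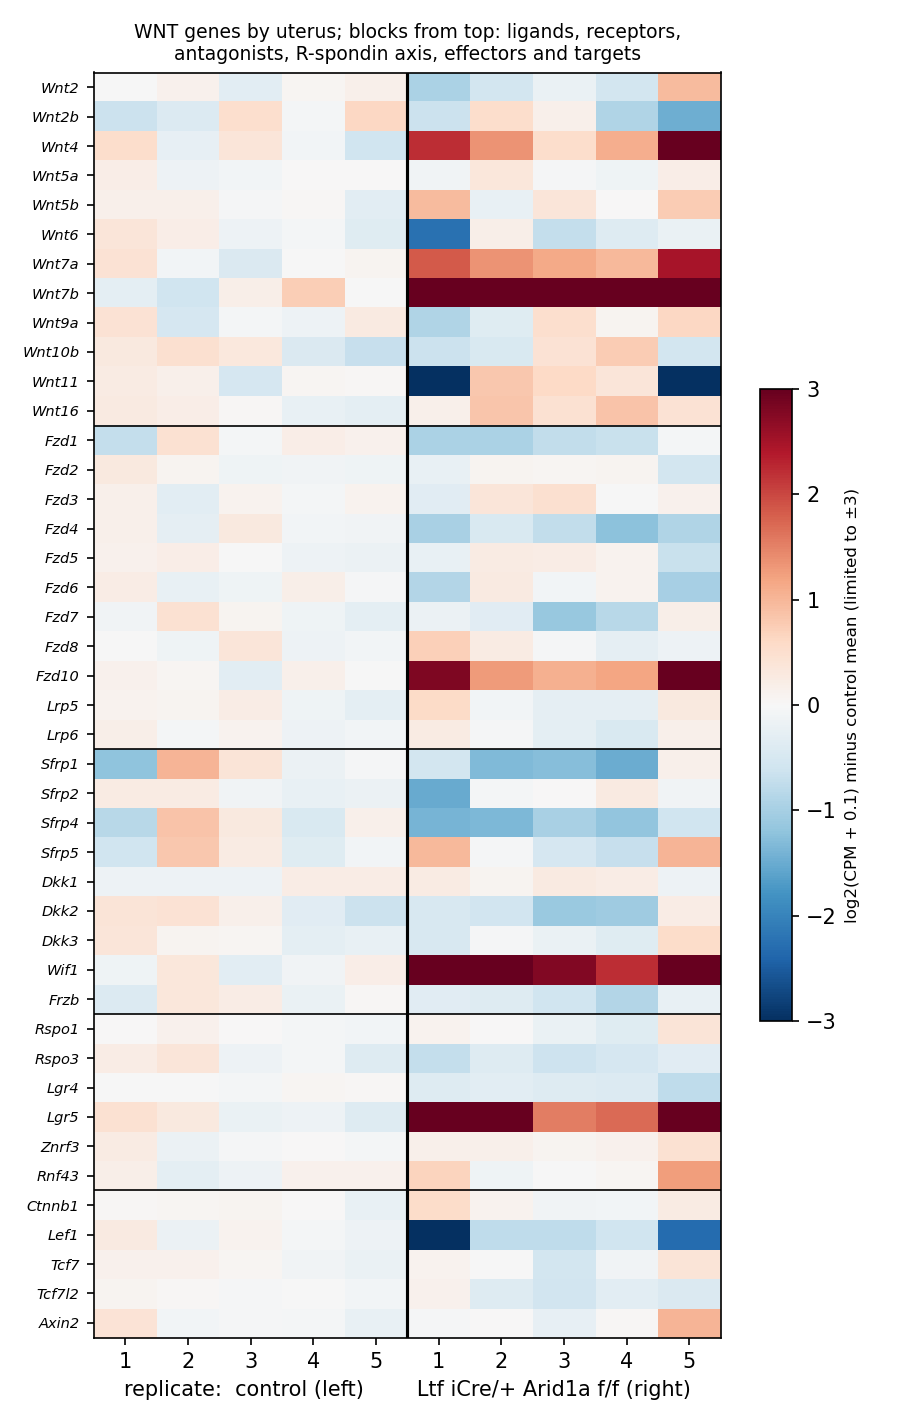
Each WNT gene (rows, by role) in each uterus (columns, replicates 1 to 5 of control, left, and of mutant, right) as log2(CPM + 0.1) minus the control mean, with colors limited to ±3. *Wnt7b*, *Fzd10*, *Lgr5*, *Wif1*, *Wnt7a* and *Wnt4* are red in all 5 mutant columns, although *Wnt4* in mutant replicate 3 is level with control replicate 1 (0.54 each). Mutant replicates 1 and 5 show the strongest colors, including the blue of *Wnt11* and *Lef1*.

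A wider list of 64 WNT pathway genes was set beside these, of which 59 were tested and 6 passed (10.2%, beside 9.70% of all genes). *Ror2*, a receptor of *Wnt5a* that acts without beta-catenin, rose from 18.9 to 33.0 CPM in controls to 36.8 to 80.4 CPM (log2 fold change 1.11 ± 0.23, adjusted p = 0.0139). The 5 that fell were *Gpc3* (-1.17 ± 0.24), a surface proteoglycan, *Prickle1* (-0.71 ± 0.13), a planar polarity protein, the co-repressors *Tle1* (-0.49 ± 0.09) and *Tle4* (-0.43 ± 0.10), and *Btrc* (-0.29 ± 0.08), which takes part in beta-catenin breakdown (adjusted p = 0.0141, 0.00800, 0.00755, 0.0247 and 0.0459). The values of the genotypes did not overlap for any of these 6. *Tle4* no longer passed without control replicate 2 or 3 (adjusted p = 0.0582 and 0.0620), and *Btrc* in 8 of the fits that left out 1 uterus. Further targets formed a group of 6 of which none passed in edgeR or DESeq2, with 2 at an unadjusted p under 0.05. These 2 were *Tnfrsf19* and *Nkd2*, with log2 differences of 0.39 ± 0.13 and 0.65 ± 0.24. *Tnfrsf19* passed in the fit without control replicate 1. The others were *Nkd1* (-0.15 ± 0.16), *Sp5* (0.86 ± 0.53), *Ccnd1* (0.11 ± 0.30) and *Myc* (-0.34 ± 0.20). *Notum*, a secreted WNT deacylase, had 0.919 to 1.98 CPM in controls and 1.68 to 12.3 CPM in mutant uteri, of which 4 were above every control. Its log2 fold change of 1.71 ± 0.50 did not pass in edgeR (adjusted p = 0.0521), while DESeq2 called it (adjusted p = 0.00389).

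Markers of other cell types moved with the genotype as well. Besides the epithelial and endothelial markers, 2 of 7 gland markers were called lower (*Foxa2* and *Wfdc3*). All 7 had log2 differences below zero, and for 5 every mutant uterus was below every control. In stroma 2 of 8 were called lower and 7 lay below zero, and in myometrium 1 of 7 was called lower and all 7 lay below zero. DESeq2 called 4 gland, 3 stromal and 2 myometrial markers lower. In T cells 3 of 6 were called higher and all 6 lay above zero. In the neutrophil list 1 of 5 was called higher and all 5 lay above zero, with a sum of 807 CPM in mutant replicate 5. In mesothelium 1 of 4 was called higher, and of 3 oviduct genes 1 was called higher and 1 lower. Macrophage and NK cell lists had 0 of 6 and 0 of 5 in edgeR, with 3 and 0 at an unadjusted p under 0.05 and 1 and 0 called by DESeq2. All 6 macrophage markers lay above zero, and all 5 NK cell markers lay below zero. The part of cell composition in the WNT values was not tested.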

How the data were processed

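Uterine RNA was sequenced as paired-end mRNA libraries. Per the submitters' processing notes, reads were trimmed with cutadapt 1.18 and Trim Galore 0.6.4, checked with FastQC 0.11.9 and aligned to GRCm38 with STAR 2.7.3a. The authors deposited the raw counts per gene from STAR without normalization or filtering. The annotation release and strand setting are not given in the sources used here.

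Identifiers were matched to GENCODE M21 (45143 of 45706). The 25146 genes averaging 1 count or more over the libraries were tested in edgeR 4.0.16 under R 4.3.3 (TMM normalization, quasi-likelihood test, genotype only, Benjamini-Hochberg adjustment, threshold 0.05) on the 5 control and 5 *Ltf iCre/+ Arid1a f/f* (mutant) uteri. CPM used TMM library sizes. In a library of 59296537 to 72702411 counts, 3 counts corresponded to 0.0418 to 0.0507 CPM, which limits *Wif1* in controls and *Dkk1*. Intervals and p-values measure the spread between mice, and no libraries were duplicates (chi-square of at least 33.3 per gene for every pair within a genotype).

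Alternatives were DESeq2 1.42.0, its size factors in edgeR, no filter, filterByExpr, the replicate number as a block, each uterus left out in turn and, added after seeing the data, mutant replicates 1 and 5 left out. The test was run on simulated data before use. The WNT genes and all gene lists were chosen with earlier results of these data known. Of the 43 WNT genes, those past the threshold were named, and others whose log2 fold change reached 1 in either direction or whose groups did not overlap, the highest of each role, and genes with known uterine biology. Of the wider pathway list, only genes past the threshold were to be named; further genes were named after their values were seen. Cell type lists covered epithelium, gland, stroma, myometrium, endothelium, macrophage, neutrophil, T cell, NK cell, mesothelium and oviduct. One further marker list is not reported here. Promoter sequence came from RefSeq (GRCm38.p6). Drawings used matplotlib 3.10.9 in Python 3.11.15.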

Additional observations from a re-analysis of the deposited data

Results flagged for a closer look

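In a group of 5 uteri, a value was singled out when its gap to the nearest other value exceeded 0.71 of the group's whole range (Dixon's criterion, which chance meets in about 1 in 20 groups). Of the 86 groups formed by 43 WNT genes and 2 genotypes, 9 met it, and 6 of the 9 were in *Ltf iCre/+ Arid1a f/f* replicate 5. In that uterus *Wnt2* stood at 1.61 CPM (nearest 0.670), *Wnt4* at 84.6 CPM (nearest 29.7), *Fzd1* at 135 CPM (nearest 89.5), *Znrf3* at 40.2 CPM (nearest 32.6) and *Axin2* at 108 CPM (nearest 53.9), each the highest of the mutants, and *Lgr4* at 42.3 CPM (nearest 54.0) was the lowest. Among controls *Fzd8* was high in replicate 3 (12.9 CPM, nearest 9.96), *Axin2* was high in replicate 1 (70.9 CPM, nearest 51.3), and *Ctnnb1* was low in replicate 5 (661 CPM, nearest 779). The same mutant uterus held 807 CPM of neutrophil markers, and the part of those cells in its WNT values was not tested.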

How the results depend on the processing

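All 10 called WNT genes kept their direction in each of the 16 alternatives, and the scaling and filter alternatives changed no call among them. DESeq2 called 4103 of all tested genes in place of 2438, 7 WNT genes as lower in place of 4 (adding *Fzd1*, *Frzb* and *Lef1*), and 10 of the wider pathway genes in place of 6. Leaving out 1 uterus gave 1204 to 2381 calls over all genes (1204, 1248 and 1414 without control replicate 2, 3 or 4), 5 to 7 higher WNT genes, 2 to 5 lower WNT genes (2 without control replicate 2 or mutant replicate 4) and 4 to 7 wider pathway genes; the cause was not tested. Signs turned only for WNT genes that had not passed, with these log2 ranges over the fits without 1 uterus: *Wnt2* (-0.63 to 0.05), *Wnt5a* (-0.01 to 0.11), *Wnt9a* (-0.12 to 0.22), *Wnt10b* (-0.55 to 0.16), *Wnt11* (-0.49 to 0.19), *Fzd5* (-0.12 to 0.09), *Fzd8* (-0.06 to 0.23), *Lrp5* (-0.08 to 0.15), *Lrp6* (-0.15 to 0.03), *Sfrp2* (-0.31 to 0.02), *Dkk3* (-0.28 to 0.03), *Rspo1* (-0.10 to 0.09), *Tcf7* (-0.13 to 0.10) and *Axin2* (-0.08 to 0.33). With mutant replicates 1 and 5 left out, 10 WNT genes were lower, and the log2 differences of genes that had not passed turned to *Wnt10b* 0.43, *Wnt11* 0.59, *Fzd2* 0.06, *Fzd5* 0.18, *Fzd6* 0.10, *Fzd8* -0.02, *Lrp5* -0.22, *Sfrp2* 0.07, *Sfrp5* -0.83, *Rspo1* -0.18, *Rnf43* -0.04, *Ctnnb1* -0.02 and *Axin2* -0.08.

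The replicate numbers did not pair the samples, since correlations of the deviations of same-numbered uteri from their group means were 0.0247, 0.0588, -0.0529, 0.0175 and 0.128, and not every uterus correlated best with its own number. With the replicate number as a block 1704 genes were called, *Wnt4* (log2 1.72, adjusted p = 0.0991) and *Rspo3* (-0.52, adjusted p = 0.0696) among the WNT genes and *Ror2* (adjusted p = 0.0591) and *Btrc* (adjusted p = 0.107) among the others did not pass, *Wif1* was at 7.82, *Lrp4* passed (adjusted p = 0.0330), and *Rspo1* turned to -0.01. Depth limits *Dkk1* and the control level of *Wif1*.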
